A study of Mus musculus with 11 samples.

Results

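The major urinary protein (MUP) genes *Mup1*, *Mup2*, *Mup3*, *Mup7*, *Mup10*, *Mup11*, *Mup17*, *Mup20* and *Mup21* were examined in isolated mouse hepatocytes that carried or lacked XBP1, a transcription factor of the unfolded protein response. These 9 genes were named by symbol, out of 49 genes with a *Mup* symbol among 54232 gene identifiers; no measured value entered the rule, but the choice was made with earlier results of these data known. Adult male C57BL/6 mice were Xbp1 fl/fl (the control genotype, labelled flox) or Xbp1 LKO (labelled KO), in which Cre driven by the albumin promoter deletes the floxed *Xbp1* in hepatocytes. Mice of both genotypes ate chow, or were given an HFS diet for up to 6 weeks. The HFS diet is high in fat and sugar, a Western diet with fructose and glucose in the water. The paper states a fast before euthanasia, but does not state it separately for the mice used for hepatocyte isolation. The 11 libraries were 3 of chow-fed Xbp1 fl/fl, 2 of chow-fed Xbp1 LKO, 3 of HFS-fed Xbp1 fl/fl and 3 of HFS-fed Xbp1 LKO hepatocytes. Each chow library was 1 mouse, whereas each HFS library pooled 2, and spread between HFS libraries is thus spread between pools. Total counts ran from 19191032 to 23888401 per library, and 13303 genes passed the filter on low counts and were tested. Values are CPM, read counts relative to library size, scaled by TMM factors that set the libraries to a common level by the genes that differ least.

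MUPs are small barrel-shaped carriers of the lipocalin family. Hepatocytes secrete them through the endoplasmic reticulum into the blood, the kidney passes them into the urine, and there they hold volatile pheromones and release them slowly. Male mice make far more of them than females under pulsed growth hormone acting through STAT5b, with testosterone, thyroid hormone and glucocorticoids also needed. *Mup20* encodes darcin, a male pheromone that attracts females.

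The genes lie in 1 cluster on chromosome 4 of GRCm38, with the members between 60066469 (*Mup7*) and 62150863 (*Mup21*), all on the minus strand. Because the cluster arose by repeated duplication, sequence decides what a read count for a single gene can mean. The stretch shown next is 50 bases of each coding sequence, as long as a read of the study, at bases 211 to 260 of the *Mup17* coding sequence and across the junction of exons 2 and 3. It was picked as the stretch with the most different sequences among the members, it is read from the GENCODE M21 transcripts, and capitals mark the bases that differ from *Mup17*.

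Mup17: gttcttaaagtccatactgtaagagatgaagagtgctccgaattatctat
Mup7: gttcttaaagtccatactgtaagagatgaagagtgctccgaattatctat
Mup10: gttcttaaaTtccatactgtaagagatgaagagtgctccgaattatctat
Mup11: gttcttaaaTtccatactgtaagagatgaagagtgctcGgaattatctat
Mup1: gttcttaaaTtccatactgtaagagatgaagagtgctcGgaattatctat
Mup2: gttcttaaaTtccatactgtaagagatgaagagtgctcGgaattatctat
Mup20: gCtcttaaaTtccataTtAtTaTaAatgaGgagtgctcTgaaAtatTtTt
Mup21: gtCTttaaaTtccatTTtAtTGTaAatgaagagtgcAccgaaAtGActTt
Mup3: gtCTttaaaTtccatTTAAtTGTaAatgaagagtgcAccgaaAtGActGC

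Even in this most variable stretch, *Mup7* was identical to *Mup17*, and *Mup1*, *Mup2* and *Mup11* were identical to each other. *Mup20* differed from *Mup17* at 12 bases, *Mup21* at 15 and *Mup3* at 17. In the *Mup17* gene the stretch lies within chr4:61594395-61595212, and in the *Mup3* gene within chr4:62086003-62086819, each with the intron between the exons. Over whole coding sequences, any pair among *Mup1*, *Mup2*, *Mup7*, *Mup10*, *Mup11* and *Mup17* differed at 1 to 7 positions (98.71% to 99.82% identity). *Mup2* and *Mup11* differed at 1 of 543 positions. These 6 genes differed from *Mup20* at 46 to 51 positions, from *Mup3* at 82 to 87 and from *Mup21* at 81 to 86, whereas *Mup3* and *Mup21* differed from each other at 20.

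How much of a gene is its own was counted as the share of its 50-base windows that occur in no transcript of another gene. The share was 86.7% for *Mup3*, 80.7% for *Mup21* and 49.5% for *Mup20*. It was 38.4% for *Mup1*, 23.5% for *Mup10*, 22.2% for *Mup11*, 21.9% for *Mup17*, 21.8% for *Mup2* and 13.3% for *Mup7*. Counts of these last 6 genes are therefore uncertain one by one, and they were also read as sums. A limit of 40% was set after the sequences and the data had been seen. It separates *Mup3*, *Mup20* and *Mup21* from 16 coding *Mup* genes that share sequence, of which 6 are members. Outside the members, *Mup4* (87.6%), *Mup5* (82.9%) and *Mup6* (96%) also lie above the limit. Of the 3 coding *Mup* genes with no 50-base window of their own, *Mup19* held 584 counts over the 11 libraries, *Mup15* held 88 and *Mup22* held 0. How reads shared by several genes were assigned is not given in the sources used here.

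The targeted gene was lower in the whole-gene counts of every Xbp1 LKO library, at 95.7 to 128 CPM against 194 to 221 CPM on chow, and 97.3 to 135 CPM against 242 to 301 CPM on the HFS diet. Whole-gene counts do not show the loss of the floxed exon itself. All 16 hepatocyte markers examined were detected in every group, but their summed level was lower in Xbp1 LKO libraries, at 66853 to 104018 CPM against 175594 to 203160 CPM on chow, and 82907 to 116693 CPM against 152796 to 166286 CPM with HFS feeding. *Alb*, the most abundant, made up much of this sum, with a mean of 106567 CPM in chow-fed Xbp1 fl/fl and 24140 CPM in chow-fed Xbp1 LKO libraries. Its log2 fold change was -2.14 (SE 0.38, adjusted p = 0.011, edgeR) on chow and -0.86 (SE 0.32, adjusted p = 0.178) on the HFS diet. Of the 16, edgeR called 2 lower on chow (3.02% of all tested genes) and 1 on the HFS diet (2.16%), and 0 higher. DESeq2 called 6 (8.5%) and 9 (7.57%). An unadjusted p under 0.05 was held by 7 (19.3%) and 11 (17.5%). Summed markers of macrophages (21.6 to 105 CPM) and endothelial cells (33.0 to 179 CPM) were low beside the hepatocyte markers in all libraries. So were those of stellate cells (9.56 to 64.4 CPM), cholangiocytes (8.30 to 24.1 CPM) and lymphocytes (0.398 to 3.10 CPM). The summed endothelial markers were 33.0 and 43.2 CPM in the chow-fed Xbp1 LKO group, below 53.6 to 132 CPM in its controls and below 84.2 to 144 CPM in the HFS-fed Xbp1 LKO group. None of the 12 endothelial markers passed edgeR's test in either of these comparisons, but 10 and 12 had an unadjusted p under 0.05, and DESeq2 called 7 and 11. Of all tested genes, edgeR called 4.75% and 0.0601% in the same comparisons, and DESeq2 8.5% and 1.6%. An unadjusted p under 0.05 was held by 19.3% and 12.7% of all tested genes. The stellate markers summed to 9.56 and 10.2 CPM in the chow-fed Xbp1 LKO group, against 14.3 to 44.7 CPM in its controls and 30.8 to 64.4 CPM in the HFS-fed Xbp1 LKO group; edgeR called 0 of 10 tested in either comparison, 3 and 8 had an unadjusted p under 0.05, and DESeq2 called 2 and 4. The macrophage markers summed to 25.4 and 36.8 CPM in the chow-fed Xbp1 LKO group, within the 21.6 to 93.7 CPM of its controls but below the 59.6 to 105 CPM of the HFS-fed Xbp1 LKO group, where edgeR and DESeq2 called 0 of 12 and 5 had an unadjusted p under 0.05. On the HFS diet the macrophage markers summed to 42.0 to 59.4 CPM in Xbp1 fl/fl and to 59.55 to 105 CPM in Xbp1 LKO libraries. In that comparison edgeR and DESeq2 called 0 of 12, and 1 had an unadjusted p under 0.05 (17.5% of all tested genes). Of 3 tested cholangiocyte markers, edgeR called 1, *Sox9*, lower in Xbp1 LKO hepatocytes on chow. The part of these shifts in the results on the MUP genes was not tested, and fewer cells of a type and less RNA per cell cannot be told apart in such samples.

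Hepatocytes devoted a large share of their RNA to the family. The 9 members together took 0.937% to 1.99% of all counts in a library, and they made up 92.9% to 97.7% of the counts of all 49 genes with a *Mup* symbol. Per kilobase of the longest coding transcript, *Mup3* had the highest level, with a mean of 7310 CPM per kb over the 11 libraries (range 2586 to 11575). *Mup17* (mean 2936), *Mup7* (2378), *Mup11* (1707) and *Mup20* (1292 CPM per kb) came next, and their ranges overlapped with each other; those of *Mup17* and *Mup7* also reached into the range of *Mup3*. *Mup17* was above *Mup7* in 7 of 11 libraries and *Mup11* was above *Mup20* in 8 of 11, so neither pair was ordered beyond its spread. *Mup3* was above *Mup17* in 9 of 11 libraries and *Mup7* above *Mup11* in 10 of 11. *Mup21* (157), *Mup1* (20.3), *Mup2* (5.01) and *Mup10* (0.171 CPM per kb) followed, and each was above the next in all 11 libraries. *Mup10* had 1 to 9 counts per library and did not pass the filter, which left 8 members tested.

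**Figure D1:**
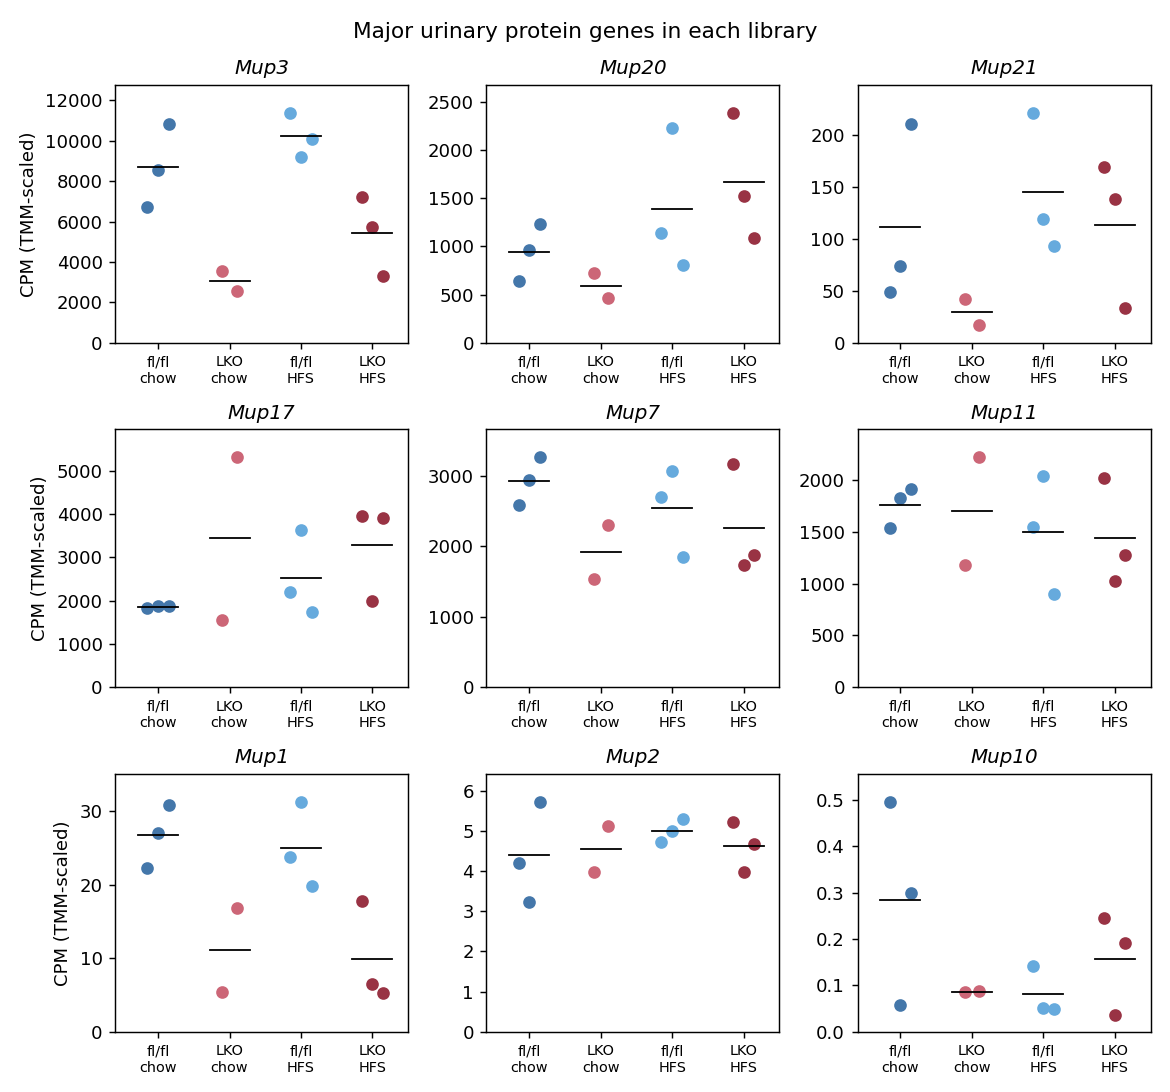
Expression of the 9 members in each library, in TMM-scaled CPM on a linear axis from 0; each point is 1 library, black bars are group means, and the groups are Xbp1 fl/fl and Xbp1 LKO on chow or HFS. In *Mup3* and *Mup1*, every Xbp1 LKO library lies below every Xbp1 fl/fl library of the same diet, while in *Mup17* the 2 chow-fed Xbp1 LKO libraries lie at 1563 and 5322 CPM.

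The first question was what the loss of hepatocyte XBP1 did to these genes on regular chow. *Mup3*, the most abundant member and the one with the most sequence of its own, was the member that passed the test, and it was lower in Xbp1 LKO hepatocytes. It had 6706, 8553 and 10803 CPM in the Xbp1 fl/fl group and 3570 and 2545 CPM in the Xbp1 LKO group. The groups did not overlap. *Mup3* (ENSMUSG00000066154, chromosome 4, 62083476 to 62087342) fell by 1.51 on the log2 scale (SE 0.33, 2.84-fold lower, adjusted p = 0.025) in the quasi-likelihood test of edgeR, adjusted over all 13303 genes by Benjamini and Hochberg's method. Of the 8 tested members 1 passed, where 4.75% of all tested genes did; 3 members had an unadjusted p under 0.05 (19.3% of all genes), and DESeq2 called 1 member (8.5% of all genes). A count of 1 does not set the family apart from all genes. The call on *Mup3* rested on few libraries: the adjusted p was 0.240 without the second Xbp1 LKO library, 0.061 without the second and 0.055 without the third Xbp1 fl/fl library, and 0.062 when only the chow-fed groups were fitted.

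*Mup21*, the closest relative of *Mup3* among the members, had 49.3, 73.6 and 211 CPM in Xbp1 fl/fl libraries and 42.02 and 17.1 CPM in Xbp1 LKO libraries on chow. Its highest Xbp1 LKO value was just under its lowest Xbp1 fl/fl value. The log2 fold change was -1.92 (SE 0.76), with an adjusted p = 0.189 by edgeR; it was -1.06 without the third Xbp1 fl/fl library and -2.71 without the first Xbp1 LKO library. *Mup20*, the gene of darcin, had 646, 960 and 1232 CPM in Xbp1 fl/fl and 720 and 466 CPM in Xbp1 LKO libraries, which overlapped, and a log2 fold change of -0.67 (SE 0.45, adjusted p = 0.454).

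Among the members that share sequence, the 2 Xbp1 LKO libraries on chow stood far apart from each other in *Mup17*. *Mup17* had 1824, 1881 and 1880 CPM in Xbp1 fl/fl libraries and 1563 and 5322 CPM in Xbp1 LKO libraries. The first Xbp1 LKO library was thus the lowest of the 5 and the second the highest by far. The log2 fold change of *Mup17* was 0.89 (SE 0.45, adjusted p = 0.318, edgeR); it was 1.51 (adjusted p = 0.050) without the first Xbp1 LKO library and -0.25 (adjusted p = 0.918) without the second.
*Mup7* had 2582, 2944 and 3264 CPM in Xbp1 fl/fl and 1538 and 2296 CPM in Xbp1 LKO libraries, without overlap, and a log2 fold change of -0.61 (SE 0.30, adjusted p = 0.297). *Mup11* had 1539, 1821 and 1910 CPM against 1179 and 2219 CPM and thus overlapped, at -0.05 (SE 0.37, adjusted p = 0.965). *Mup1*, at a far lower level, had 22.3, 27.0 and 30.9 CPM in Xbp1 fl/fl and 5.46 and 16.8 CPM in Xbp1 LKO libraries; its groups did not overlap, and the log2 fold change was -1.26 (SE 0.52, adjusted p = 0.207), or -0.67 without the first and -2.29 without the second Xbp1 LKO library. *Mup2* stayed between 3.24 and 5.73 CPM in these 5 libraries, at 0.05 (SE 0.25, adjusted p = 0.946).

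In all, 6 of 8 log2 fold changes on chow were negative and 2 positive, with a median of -0.64 beside 0.00 over all tested genes. In 4 members (*Mup1*, *Mup3*, *Mup7* and *Mup21*) both Xbp1 LKO libraries lay under all 3 of Xbp1 fl/fl, which held for 15.9% of all tested genes. Scaling by library totals in place of TMM raised the median log2 fold change of all genes by 0.33 on chow and by 0.26 on the HFS diet; *Mup3* then remained negative on both diets (-1.19 and -0.67), whereas *Mup11* turned positive on both (0.30 and 0.19), as did *Mup7* (0.08) and *Mup2* (0.14) on the HFS diet.

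The second comparison set the genotypes side by side after HFS feeding. *Mup3* had 11390, 9192 and 10104 CPM in Xbp1 fl/fl libraries and 7225, 5737 and 3304 CPM in Xbp1 LKO libraries. Again no library of one group reached the other, and the spread within the Xbp1 LKO group was wide. The log2 fold change was -0.92 (SE 0.28) with an adjusted p = 0.098 by edgeR, while DESeq2 gave the same size with an adjusted p = 0.011. By edgeR 0 of 8 members passed, where 4.08% of all tested genes did; 2 members (*Mup1* and *Mup3*) had an unadjusted p under 0.05 (17.5% of all genes), and DESeq2 called 1 (7.57% of all genes). *Mup1* had 23.8, 31.3 and 19.9 CPM in Xbp1 fl/fl and 17.8, 6.55 and 5.21 CPM in Xbp1 LKO libraries. The groups were close but did not overlap, and the log2 fold change was -1.34 (SE 0.46, adjusted p = 0.136); without the first Xbp1 LKO library it was -2.08 (adjusted p = 0.020).

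The other 6 tested members overlapped between genotypes on the HFS diet. *Mup20* had 1134, 2225 and 802 CPM in Xbp1 fl/fl and 2387, 1524 and 1089 CPM in Xbp1 LKO libraries, a log2 fold change of 0.27 (SE 0.39, adjusted p = 0.804). *Mup21* had 222, 120 and 93.3 CPM against 170, 139 and 33.9 CPM, at -0.35 (SE 0.63, adjusted p = 0.850), which turned to 0.10 without the first Xbp1 fl/fl library and to 0.09 without the third Xbp1 LKO library. *Mup17* had 2205, 3645 and 1745 CPM against 3949, 2001 and 3924 CPM, at 0.38 (SE 0.41, adjusted p = 0.717).
The log2 fold changes of *Mup7*, *Mup11* and *Mup2* lay between -0.17 and -0.05, with standard errors of 0.22 to 0.33. Over the 8 members the median was -0.14, beside 0.01 over all tested genes, and in 2 members the Xbp1 LKO libraries lay wholly below, as in 12.5% of all tested genes.

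**Figure D2:**
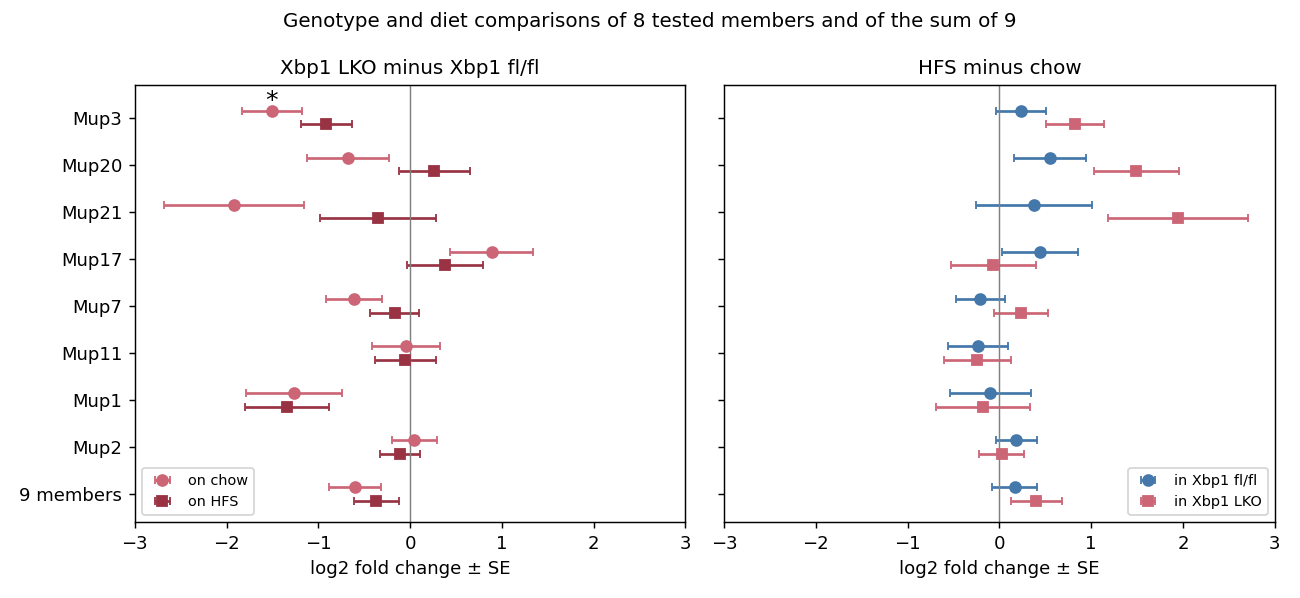
Log2 fold changes with standard errors from edgeR for the 8 tested members and the sum of all 9, for genotype (left, Xbp1 LKO minus Xbp1 fl/fl) and diet (right, HFS minus chow); the star marks an adjusted p under 0.05. *Mup3* lies at -1.51 on chow and -0.92 on HFS in the left panel, and *Mup20* and *Mup21* lie farthest to the right, at 1.49 and 1.95, for the HFS diet in Xbp1 LKO hepatocytes.

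The third question was whether the HFS diet changed the genes within a genotype. In Xbp1 fl/fl hepatocytes, 0 of 8 members passed in edgeR and 0 in DESeq2, and 0 had an unadjusted p under 0.05. Of all tested genes 0.428% passed in edgeR and 1.42% in DESeq2, and 8.95% had an unadjusted p under 0.05. The log2 fold changes ran from -0.24 (*Mup11*) to 0.55 (*Mup20*, SE 0.39), and in each member the groups overlapped, where 7.34% of all genes lay wholly lower and 6.33% wholly higher. In Xbp1 LKO hepatocytes, 0 of 8 members passed in edgeR and 0 in DESeq2, where 0.0601% of all tested genes passed in edgeR and 1.6% in DESeq2, and 3 members had an unadjusted p under 0.05 (12.7% of all genes). These 3 were *Mup20*, *Mup3* and *Mup21*, the members with the most sequence of their own, and all were higher on the HFS diet. *Mup20* went from 720 and 466 CPM on chow to 2387, 1524 and 1089 CPM on the HFS diet, without overlap, which 16.7% of all tested genes also showed in this direction. Its log2 fold change was 1.49 (SE 0.46, adjusted p = 0.247). *Mup21* had a log2 fold change of 1.95 (SE 0.76, adjusted p = 0.324), or 2.73 without the first chow library, and *Mup3* of 0.83 (SE 0.32, adjusted p = 0.317), and both overlapped between diets, in *Mup3* because the third HFS library (3304 CPM) lay below the first chow library (3570 CPM). These comparisons share the chow-fed Xbp1 LKO libraries with the genotype comparison on chow, so the 2 sets of values are not independent. The summed endothelial, stellate and macrophage markers, given earlier, were likewise all higher with HFS feeding in this genotype. So were those of cholangiocytes (17.0 to 24.1 against 8.30 and 12.3 CPM). Lymphocyte markers, at very low levels, were too (0.8554 to 3.105 against 0.7865 and 0.8532 CPM). The part of these markers was not tested.

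A difference between the genotype effects on the diets was tested as an interaction. By edgeR 0 of 8 members passed, as did 0% of all tested genes; 0 members had an unadjusted p under 0.05 (6.13% of all genes), and DESeq2 called 0 members (0.218% of all genes). The largest interaction term was that of *Mup21*, at 1.57 (SE 0.97, adjusted p = 0.859), and that of *Mup3* was 0.59 (SE 0.42, adjusted p = 0.876). The fall of *Mup3* in Xbp1 LKO hepatocytes on chow was therefore not shown to differ from the value on the HFS diet.

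A sum does not depend on how the counted reads were divided among the genes in it. Reads assigned to near-identical genes outside the sum, or not counted at all, are still missing from it. The sums are given without a test because the genes were chosen with earlier results known. Summed over the 9 members, the chow-fed groups had 13374, 16263 and 19337 CPM (Xbp1 fl/fl, mean 16324 ± 2982, SD, n = 3) and 8622 and 12886 CPM (Xbp1 LKO, mean 10754 ± 3015, SD, n = 2). The groups were separated by less than the spread within either, and the log2 fold change was -0.60 (SE 0.28). With HFS feeding, Xbp1 fl/fl had 19219, 20321 and 15522 CPM (mean 18354 ± 2514, SD, n = 3) and Xbp1 LKO 18940, 12168 and 11515 CPM (mean 14208 ± 4111, SD, n = 3), which overlapped, with a log2 fold change of -0.37 (SE 0.25). The sum changed with diet by 0.17 (SE 0.25) in Xbp1 fl/fl and 0.40 (SE 0.28) in Xbp1 LKO hepatocytes on the log2 scale, and the groups overlapped in both.

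Splitting the sum at the limit of 40% gave unlike values. The part above it was mostly *Mup3*, with a mean of 8687.3 of 9744.5 CPM in chow-fed Xbp1 fl/fl libraries. In HFS-fed Xbp1 fl/fl libraries it was 10228.5 of 11760.8 CPM. That part thus largely repeats *Mup3*, and *Mup20* alone had 0.27 between genotypes on the HFS diet. *Mup1*, just under the limit at 38.4%, had -1.26 on chow and -1.34 on the HFS diet. On chow, *Mup3*, *Mup20* and *Mup21* together had 7401, 9586 and 12246 CPM in Xbp1 fl/fl and 4331 and 3028 CPM in Xbp1 LKO libraries, a log2 fold change of -1.41 (SE 0.33). After HFS feeding they had 12746, 11537 and 11000 CPM against 9782, 7400 and 4427 CPM, a log2 fold change of -0.71 (SE 0.28). Neither pair of groups overlapped, where 15.9% of all tested genes lay wholly lower on chow and 12.5% on the HFS diet.
The 16 genes that share sequence had, on chow, 6460, 7248 and 7660 CPM in Xbp1 fl/fl and 4506 and 10744 CPM in Xbp1 LKO libraries, a log2 fold change of 0.10 (SE 0.38). Leaving out the first Xbp1 LKO library gave 0.59 and leaving out the second gave -0.66, so the direction on chow depended on which of the 2 was kept. With HFS feeding the sums were 6983, 9596 and 4840 CPM against 9773, 5044 and 7517 CPM, at 0.06 (SE 0.34), and leaving out 1 library of either group moved this from -0.18 (without the first Xbp1 LKO library) to 0.33 (without the second Xbp1 fl/fl library). The Xbp1 LKO library with the highest sum of shared sequence on chow was the one with the lowest *Mup3*. The difference between the 2 sums was not tested. *Mup4*, *Mup5* and *Mup6*, also above the limit, entered neither sum and had group means of 3.44 to 34.4 CPM. Their log2 fold changes between genotypes were 0.11, 0.01 and 0.18 on chow, and 0.39, 0.11 and 0.37 on the HFS diet (SE 0.26 to 0.34).

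**Figure D3:**
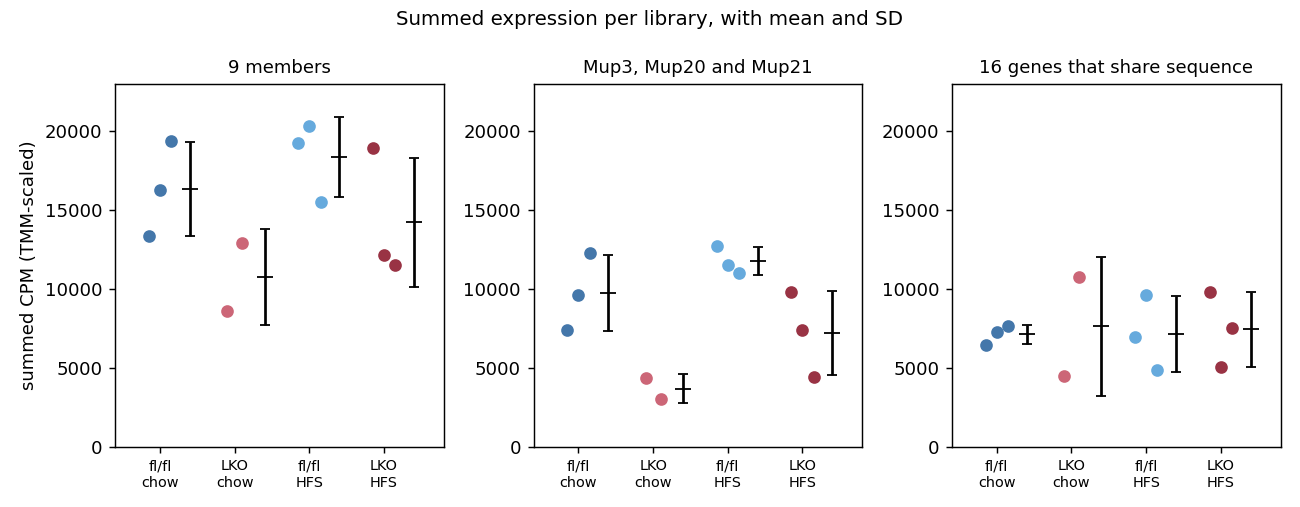
Summed TMM-scaled CPM per library (points) with the mean and SD of each group (black), for the 9 members, for *Mup3*, *Mup20* and *Mup21*, and for the 16 coding genes that share sequence, on 1 linear scale from 0. The middle panel, which is mostly *Mup3*, separates the genotypes on both diets. In the right panel the 2 chow-fed Xbp1 LKO libraries, at 4506 and 10744 CPM, lie on either side of all 3 chow-fed Xbp1 fl/fl libraries.

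The make-up of the family was read from each library, as a description. On chow, *Mup3* gave 50.1%, 52.6% and 55.9% of the members' counts in Xbp1 fl/fl and 41.4% and 19.8% in Xbp1 LKO libraries. After HFS feeding its share was 59.3%, 45.2% and 65.1% in Xbp1 fl/fl and 38.1%, 47.1% and 28.7% in Xbp1 LKO libraries, where the groups overlapped. *Mup17*, the member that took its place as the largest in 2 Xbp1 LKO libraries, gave 41.3% of the members' counts in the second chow library and 34.1% in the third HFS library. In the other 3 Xbp1 LKO libraries it gave 18.1%, 20.8% and 16.4%, the last within the 9.72% to 17.9% of Xbp1 fl/fl libraries. Among the genes that share sequence alone, *Mup17* held 24.5% to 28.2% of the counts in Xbp1 fl/fl and 34.7% and 49.5% in Xbp1 LKO libraries on chow, and 31.6% to 38.0% against 39.7% to 52.2% on the HFS diet, with no overlap on either diet. *Mup1* held 0.346% to 0.403% against 0.121% and 0.157% on chow, and 0.326% to 0.411% against 0.0694% to 0.183% on the HFS diet. The separation was not particular to *Mup17* and *Mup1*. The shares of *Mup12* and *Mup16* were also lower in Xbp1 LKO libraries without overlap on both diets. Those of *Mup7*, *Mup14* and *Mup18* separated on chow only. No share over all genes was computed for such a separation, and a rise in the share of 1 gene lowers the others. These shares depend on how reads were divided among near-identical transcripts.

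**Figure D4:**
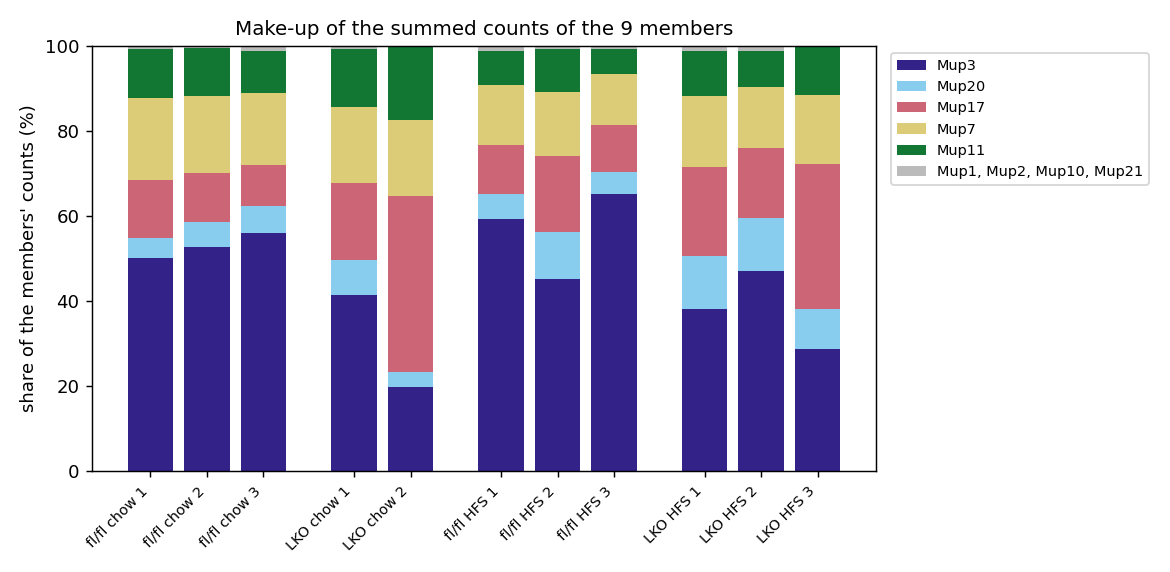
Share of the summed counts of the 9 members (percent, from 0 to 100) that each member gave in each of the 11 libraries, with 4 minor members drawn together in grey. *Mup3* is the largest part in all 6 Xbp1 fl/fl libraries, and *Mup17* is larger than *Mup3* in the second chow-fed and the third HFS-fed Xbp1 LKO library.

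Of the other *Mup* genes, 13 are coding genes and 27 pseudogenes, and 16 of these had a mean of at least 1 CPM. *Mup12* was the only one of those 16 to pass the edgeR test in any comparison. It passed in the genotype comparison on both diets, where 4.75% of all tested genes passed on chow and 4.08% on the HFS diet. It shares most of its sequence with other genes, with 14.6% of 50-base windows its own. On chow, *Mup12* had 32.6, 51.55 and 76.1 CPM in Xbp1 fl/fl and 10.3 and 13.85 CPM in Xbp1 LKO libraries, and 46.4, 35.1 and 34.5 CPM against 20.7, 8.70 and 5.60 CPM on the HFS diet. All Xbp1 LKO libraries thus lay below all Xbp1 fl/fl libraries. Of all tested genes, 15.9% lay wholly lower in Xbp1 LKO libraries on chow and 12.5% on the HFS diet. It fell by 2.14 on the log2 scale on chow (SE 0.49, adjusted p = 0.031) and by 1.73 on the HFS diet (SE 0.42, adjusted p = 0.044), but both calls were lost in several fits that left out 1 library, with adjusted p up to 0.181 on chow (without the second Xbp1 LKO library) and up to 0.178 on the HFS diet (without the second HFS-fed Xbp1 LKO library), and with the replicate number as a block (0.066 and 0.073). *Mup9* went the other way in a single library, with 343 CPM in the second chow-fed Xbp1 LKO library and 21.1 CPM in the first, beside 56.6 to 59.1 CPM in chow-fed Xbp1 fl/fl libraries. *Mup18* had 132 CPM in that library and 33.3 CPM in the first, beside 32.6 to 39.7 CPM. *Mup14* and *Mup16*, with 84.1 to 302 and 60.6 to 305 CPM, overlapped between genotypes on both diets; the log2 fold change of *Mup16* was -1.27 (SE 0.43, adjusted p = 0.134, edgeR) with HFS feeding. The remaining 11 (*Mup4*, *Mup5*, *Mup6*, *Mup8*, *Mup13*, *Mup19*, *Mup-ps12*, *Mup-ps13*, *Mup-ps18*, *Mup-ps21* and *Mup-ps22*) had adjusted p of 0.304 or more in both genotype comparisons.

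Across the 11 libraries, the log2 CPM of *Mup3* and *Mup21* had a Pearson r of 0.86, *Mup1* and *Mup7* of 0.845, and *Mup7* and *Mup11* of 0.81, whereas *Mup3* and *Mup17* had an r of -0.45. These values describe libraries that share their genotype and diet within groups. The family sum followed *Mup7* (0.86), *Mup1* (0.85) and *Mup3* (0.79) more closely than *Mup17* (0.17). Among 11106 genes outside the family, the 5 most like the sum were *C4a* (0.91), which encodes the sex-limited protein related to complement C4, *Itsn1* (0.90), an endocytic scaffold, *AW011738* (0.89), *Snx29* (0.88) and *Ccdc174* (0.88).

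Genes of the pathways that act on *Mup* expression were counted next, from lists that are not independent of earlier results of these data. Of 10 tested genes of growth hormone and STAT5 signalling, 1 was higher and 0 lower in Xbp1 LKO hepatocytes on chow (1.73% and 3.02% of all tested genes), with a median log2 fold change of 0.57 beside 0.00 over all genes. It was *Stat5a*, a paralog of *Stat5b*, at 0.85 (SE 0.20, adjusted p = 0.033, edgeR). DESeq2 called 1 of the 10 on chow (8.5% of all tested genes), and 4 had an unadjusted p under 0.05 (19.3%). *Socs3*, a feedback inhibitor of cytokine signalling, had 1.72 (SE 0.64, adjusted p = 0.162) and the kinase gene *Jak2* -0.29 (SE 0.11, adjusted p = 0.154). With HFS feeding edgeR called 0 of the 10 (4.08% of all tested genes) and DESeq2 called 1 (7.57%). An unadjusted p under 0.05 was held by 1 (17.5%), and the median was 0.15. By edgeR, *Stat5a* had 0.63 (SE 0.18, adjusted p = 0.077) with HFS feeding. *Stat5b* had 0.15 (SE 0.13, adjusted p = 0.649, edgeR) with HFS feeding and 0.29 (SE 0.15, adjusted p = 0.317) on chow.

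Other genes with a sex difference in liver were compared in the same way. Of 15 male-biased genes outside the family, edgeR called 2 lower and 0 higher on chow (3.02% and 1.73% of all tested genes), with a median of -0.10. On the HFS diet 1 was lower and 0 higher (2.16% and 1.92% of all tested genes), with a median of -0.28. DESeq2 called 2 on each diet (8.5% and 7.57%), and 4 and 6 had an unadjusted p under 0.05 (19.3% and 17.5%). The glutathione transferase gene *Gstp1* (-1.25, SE 0.25, adjusted p = 0.018) and the P450 gene *Cyp2u1* (-1.34, SE 0.27, adjusted p = 0.019) fell on chow, and *Selenbp2*, a selenium binding protein gene, fell by 2.49 on the HFS diet (SE 0.61, adjusted p = 0.046, edgeR). *Cyp7b1*, a hydroxylase of sterols, had 0.81 (SE 0.30, adjusted p = 0.161) on chow, and the receptor gene *Egfr* had -0.75 (SE 0.23, adjusted p = 0.100) on the HFS diet.
Of 24 female-biased genes 16 passed the filter on low counts, and some can only pass it through the group where they are high. Of these 16, edgeR called 2 higher and 0 lower on chow (1.73% and 3.02% of all tested genes), with a median of 1.11 beside 0.00 over all genes. They were *Cyp2b9* (3.73, SE 0.87, adjusted p = 0.034) and *Tox* (1.58, SE 0.36, adjusted p = 0.031). In the HFS comparison 3 were higher and 0 lower (1.92% and 2.16%), with a median of 0.85 beside 0.01. They were *Cyp2a4* (3.60, SE 0.40, adjusted p = 0.0016), *Slc22a27* (2.19, SE 0.44, adjusted p = 0.021) and *Ntrk2* (2.57, SE 0.64, adjusted p = 0.049). *Slc22a27* was at a very low level, with means of 0.4075 and 1.885 CPM, and DESeq2 gave *Ntrk2* an adjusted p = 0.073. DESeq2 called 3 of the 16 on chow and 2 on the HFS diet (8.5% and 7.57%). An unadjusted p under 0.05 was held by 8 and 9 (19.3% and 17.5%). *Cyp2b9* and *Cyp2a4* encode P450 enzymes and have near-identical relatives, so their counts carry the same doubt as those of the MUP genes. With HFS feeding *Cyp2b9* had -0.17 (SE 0.53, adjusted p = 0.926), and it was higher on the HFS diet than on chow in Xbp1 fl/fl hepatocytes (mean 11.7 against 0.259 CPM, adjusted p = 0.017, edgeR).

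Of 16 regulators of transcription in liver, edgeR and DESeq2 called 0 in either genotype comparison. Of all tested genes edgeR called 4.75% on chow and 4.08% on the HFS diet, and DESeq2 8.5% and 7.57%. An unadjusted p under 0.05 was held by 3 regulators on chow and 2 on the HFS diet (19.3% and 17.5% of all tested genes). The medians were 0.01 and -0.03. On chow the smallest p belonged to *Foxa1* (0.45, SE 0.17, adjusted p = 0.161), *Cebpb* (0.63, SE 0.26, adjusted p = 0.198) and *Foxa2* (0.45, SE 0.19, adjusted p = 0.209), and on the HFS diet *Cebpb* had -0.51 (SE 0.23, adjusted p = 0.283).
Of 10 tested lipocalins outside the MUP family, edgeR called 0 on either diet, and DESeq2 called 2 on chow and 0 on the HFS diet. An unadjusted p under 0.05 was held by 3 on chow and 2 on the HFS diet. The shares of all tested genes are those given for the regulators of transcription. Those with the smallest p were *Apom*, a carrier of sphingolipid in plasma (-0.74, SE 0.21, adjusted p = 0.075 on chow), *Ambp*, the precursor of alpha-1-microglobulin (-0.74, SE 0.24, adjusted p = 0.111 on chow), *C8g* of complement (-0.49, SE 0.19, adjusted p = 0.179 on chow) and the acute phase gene *Orm1* (-1.43, SE 0.66, adjusted p = 0.292 on the HFS diet). The medians of these secreted relatives were -0.15 on chow and -0.52 on the HFS diet, beside 0.00 and 0.01 over all tested genes.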

How the data were processed

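RNA of 11 hepatocyte libraries was read as 50 base single-end reads. The authors deposited raw, whole-number read counts for each Ensembl gene. The paper's methods name kallisto and tximport, while the submitters' processing notes name cutadapt 1.13, STAR and HTSeq 0.6.1p1 on mm10; the sources differ, and how reads shared by near-identical *Mup* genes were assigned is not given. Of 54232 identifiers, 54165 were found in GENCODE M21 (GRCm38), which gave symbols, positions and transcripts.

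Groups came from the sample labels. edgeR 4.0.16 in R 4.3.3 filtered low genes by filterByExpr at a minimum count of 10, gave TMM factors and CPM, and fitted 4 group means by quasi-likelihood over the 11 libraries, with Benjamini-Hochberg adjustment over 13303 genes and a threshold of 0.05; the code was tested on simulated counts. Standard errors of edgeR fold changes were the size of the log2 fold change divided by the square root of its F statistic. Sums were added to the fit as extra features. For correlations, log2 CPM took a prior count of 2. Alternatives were DESeq2 1.42.0, RLE factors, library totals, no filter, a minimum count of 30, only the groups compared, replicate blocks, all *Mup* genes, and each library left out. The members and lists were chosen with earlier results of these data known. Named genes were all members, other *Mup* genes with a mean of at least 1 CPM, *Xbp1*, *Alb*, the 3 smallest p of each list in each genotype comparison, and the 5 genes most like the family sum; 1 gene that this rule names is not reported here. Chow libraries came from single mice and HFS libraries from pools, and no pair of replicates agreed within counting error (chi-square of 25.4 to 91.5 per degree of freedom), so no intervals of counting error are given. No protein sequence was used here.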

Additional observations from a re-analysis of the deposited data

How the results depend on the processing

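*Mup3* stayed lower in Xbp1 LKO hepatocytes on both diets under all alternatives run. The number of members called on chow, 1, became 4 with no filter, 0 with only the groups compared, and 0 to 2 when a library was left out; on the HFS diet 0 became 2 with no filter, 1 with DESeq2, and 0 to 1 with a library left out. With no filter it became 3 for diet in Xbp1 LKO hepatocytes and 1 for the interaction. The log2 fold change of the family sum on chow moved to -0.26 with library totals and ran from -0.92 (without the second chow-fed Xbp1 LKO library) to -0.34 with a library left out. Leaving out libraries gave 0.14 to 0.73 for diet in Xbp1 LKO hepatocytes and -0.0321 to 0.55 for the interaction, in both cases lowest without the first and highest without the second chow-fed Xbp1 LKO library. A fit that leaves 1 chow-fed Xbp1 LKO library assumes that it varies like the other groups. The cause of these moves was not tested.

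Calls over all genes moved too. On chow 632 became 3000 with library totals, 1507 with no filter, 1130 with DESeq2, 233 with only the groups compared, and 69 to 762 with a library left out. On the HFS diet 543 became 1483, 1438 and 1007 with the first 3 of these, and 184 to 662 with a library left out. For diet in Xbp1 fl/fl hepatocytes 57 became 499 with no filter, 181 with DESeq2 and 6 to 59 with a library left out; in Xbp1 LKO hepatocytes 8 became 722, 213 and 0 to 36, and 19 under the block, 53 under its other numbering and 0 with only the groups compared; and for the interaction 0 became 269 and 29.

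Same-numbered libraries come from different animals. Their deviations had a mean correlation of -0.03 (15 pairs, -0.32 to 0.29), beside 0.015 for libraries with different numbers. With so few libraries these values cannot show whether same-numbered libraries were handled together. The main fit did not use the numbers. When replicate number entered as a block, the family sum had a log2 fold change of -0.65 on chow and -0.37 on the HFS diet, *Mup3* kept its call on chow (adjusted p = 0.049), and the count of members called was the same in each comparison; the other numbering of the second chow-fed Xbp1 LKO library, chosen after seeing the data, gave the same counts.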
